A study of Chlamydomonas reinhardtii with 6 samples.

Results

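The 8 genes described here encode photoprotective proteins and minor antenna proteins of photosystem II in the unicellular green alga Chlamydomonas reinhardtii. They were chosen by locus identifier, and all 8 were found among the 17741 gene models of the deposited table. The members were LHCSR1 (Cre08.g365900.v5.5), LHCSR3.1 (Cre08.g367500.v5.5), LHCSR3.2 (Cre08.g367400.v5.5), PSBS1 (Cre01.g016600.v5.5), PSBS2 (Cre01.g016750.v5.5), LHCB4 (Cre17.g720250.v5.5), LHCB5 (Cre16.g673650.v5.5) and LHCB7 (Cre02.g110750.v5.5). The gene names came with the list of identifiers. Neither the table nor the RefSeq gene table that matched all 8 identifiers holds a symbol for them, so the names could not be checked against these data.

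Poly-A RNA was sequenced from 3 cultures with 6 µM manganese, named as the control in the labels, and from 3 cultures with 1000 µM manganese. All 6 were cultures of strain CC-4532 in acetate-containing TAP medium, with no genetic difference between the groups, grown at 24 °C in dim continuous light (about 50 µmol per square metre and second). They were harvested in mid-logarithmic growth at 3000000 cells per mL. The flasks shared a starter culture, so the p-values measure the spread between sister cultures of 1 strain, and the comparison asks which transcripts change when manganese is in excess.

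The LHCSR proteins are stress-related relatives of the light-harvesting complexes. They bind chlorophyll and xanthophylls, respond to the acidity of the thylakoid lumen, and carry the rapid, energy-dependent dissipation of excess excitation as heat in this alga. LHCSR3 is known as a high-light protein and LHCSR1 as a protein strongly induced by UV-B. PSBS, which carries the same kind of dissipation in land plants, is known in Chlamydomonas for transient expression after a shift to high light or under UV-B. LHCB4 and LHCB5, also called CP29 and CP26, are monomeric antenna proteins that sit between the photosystem II core and the trimeric antenna. Photosystem II itself depends on manganese, which forms the metal cluster of its oxygen-evolving centre.

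None of the 8 genes differed between the manganese levels at a limma adjusted p under 0.05, and the adjusted p was 0.99997 for each of the 6 members that could be tested. The members spanned a very wide range of abundance. LHCB5 and LHCB4 transcripts lay between 2302 and 3099 FPKM (a fragment count scaled to transcript length and library size), LHCSR1 near 42, LHCB7 near 8 and the LHCSR3 genes between 0.467 and 3.21 FPKM, while both PSBS genes stayed under 0.04 FPKM. The LHCSR3 genes varied several-fold between sister cultures at each manganese level, far more than the other tested members.

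Libraries 6 µM replicate 1 and 1000 µM replicate 3 stood apart from the other 4. On the first principal component of log2(FPKM + 1), which held 57.8% of the variance, these libraries scored 0.36 and 0.73, and the others between -0.38 and -0.11. They come from different manganese levels, and results are therefore also given without them. The FPKM sums of the libraries ran from 629620 to 767912. Values of rarely sequenced genes fell on steps of whole fragments, which gave the number of fragments per FPKM relative to 6 µM replicate 1. This relative depth was 1.08 and 1.12 in 6 µM replicates 2 and 3, and 1.03, 0.713 and 0.851 in 1000 µM replicates 1, 2 and 3. After this scaling the values of 6 members were whole multiples of a common step in all libraries, to within 0.0034 of a fragment. The step was 0.0115 to 0.0141 FPKM in 6 µM replicate 1, and these multiples are given below as the smallest numbers of fragments that fit. LHCB4 and LHCB5 were too abundant for the 6 printed digits to resolve single fragments.

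**Figure D1:**
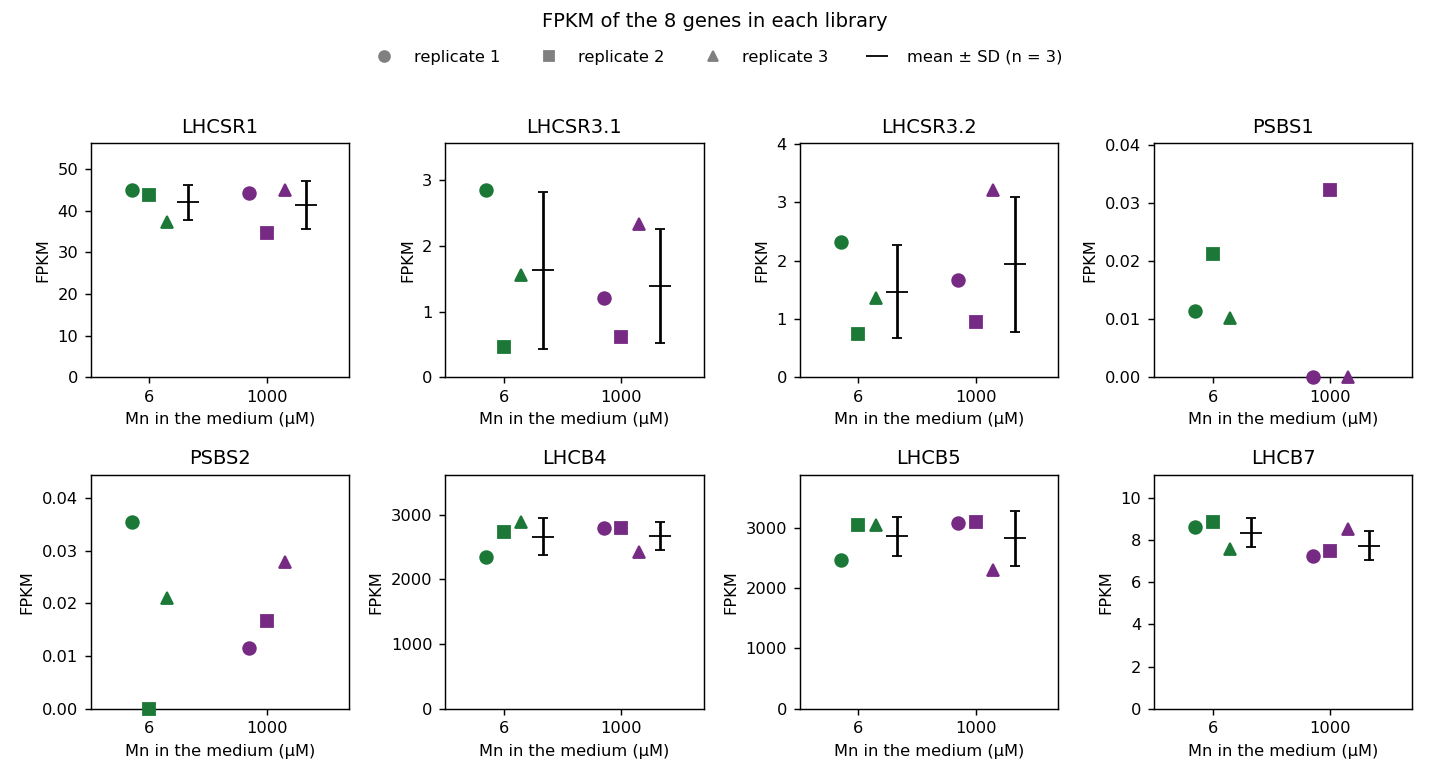
FPKM of each of the 8 genes (vertical axes, linear from 0) at 6 and 1000 µM manganese, with 1 symbol per library and the mean ± SD of 3 libraries where no library is listed at 0. The groups overlap for every gene; LHCSR3.1 runs from 0.467 to 2.85 FPKM while LHCB4 runs only from 2340.0 to 2892 FPKM.

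LHCSR1, the UV-B-inducible LHCSR protein, was the most abundant of the stress-related transcripts under these low-light conditions. It measured 44.9, 43.8 and 37.3 FPKM in 6 µM replicates 1, 2 and 3, and 44.3, 34.7 and 44.9 FPKM in 1000 µM replicates 1, 2 and 3. The highest libraries of both groups lay within 0.1 FPKM of each other, and the lowest of all was 1000 µM replicate 2. The means were 42.0 ± 4.13 FPKM with 6 µM against 41.3 ± 5.76 FPKM with 1000 µM manganese (SD, n = 3 per group). The difference of log2(FPKM + 1), 1000 µM minus 6 µM, was -0.03 ± 0.13 (SE), with a 95% interval from -0.34 to 0.28 (limma adjusted p = 0.99997). In FPKM this interval corresponds to 0.786-fold to 1.22-fold. Between 1752 and 3369 fragments stood behind each value, a counting error of 1.72% to 2.39%.

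LHCSR3.1 and LHCSR3.2, neighbouring genes with no other gene model between them in the reference table, encode the LHCSR3 protein. LHCSR3.1 measured 2.85, 0.467 and 1.56 FPKM in 6 µM replicates 1, 2 and 3, and 1.21, 0.617 and 2.33 FPKM in 1000 µM replicates 1, 2 and 3. LHCSR3.2 measured 2.32, 0.745 and 1.35 FPKM at 6 µM and 1.67, 0.944 and 3.21 FPKM at 1000 µM, in the same order. Both genes were highest in 6 µM replicate 1 and 1000 µM replicate 3, the libraries that stood apart, and lowest in 6 µM replicate 2 and 1000 µM replicate 2, where each was under 1 FPKM. Each group thus held a high, a middle and a low library, and the groups overlapped throughout.

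The means of LHCSR3.1 were 1.63 ± 1.19 FPKM with 6 µM against 1.39 ± 0.871 FPKM with 1000 µM manganese (SD, n = 3 per group). Its log2 difference was -0.09 ± 0.36 (SE), with a 95% interval from -0.91 to 0.72 (limma adjusted p = 0.99997). The means of LHCSR3.2 were 1.47 ± 0.792 and 1.94 ± 1.16 FPKM (SD, n = 3 each), and its log2 difference was 0.23 ± 0.30 (SE), with a 95% interval from -0.46 to 0.91 (limma adjusted p = 0.99997). The point estimates had opposite signs, each within its own standard error of 0, and whether the genes differ from each other in response was not tested. Reads from such close relatives can be divided between them or left out, depending on the counting, so the genes were also summed. A sum does not restore reads that were left out. The sum was 3.098 ± 1.98 FPKM with 6 µM against 3.33 ± 2.029 FPKM with 1000 µM manganese (SD, n = 3 per group), with a log2 difference of 0.09 and a 95% interval from -0.84 to 1.03 (limma adjusted p = 0.99997). In FPKM the interval of the sum runs from 0.397-fold to 2.42-fold, so a change of 2-fold in either direction lies inside it.

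The fragments behind the LHCSR3 values were few in the low libraries. LHCSR3.1 rested on 214, 38 and 132 fragments in 6 µM replicates 1, 2 and 3, and on 94, 33 and 149 fragments in 1000 µM replicates 1, 2 and 3. The exact Poisson 95% interval, which covers counting error only, ran from 2.48 to 3.26 FPKM for 6 µM replicate 1 and from 0.330 to 0.641 FPKM for 6 µM replicate 2. LHCSR3.2 rested on 172, 60 and 113 fragments at 6 µM and on 128, 50 and 203 fragments at 1000 µM. Relative to a value of 1 for counting error alone, the variance between libraries of LHCSR3.1 was 69.6 at 6 µM and 32.2 at 1000 µM, and that of LHCSR3.2 was 33.3 and 40.6. For LHCSR1 these ratios were 31.4 and 43.4, and for LHCB7 4.89 and 4.34, so the spread between cultures exceeded counting error for these members too. At the same relative spread this ratio grows with the number of fragments, so it does not compare the spread of different genes. Over the 6 libraries the highest value was 6.10 times the lowest for LHCSR3.1 and 4.31 times for LHCSR3.2. It was 1.30 times the lowest for LHCSR1 and 1.23 times for LHCB7.

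On the log2(FPKM + 1) scale the within-group SD of LHCSR3.1 was 0.62, above that of 99.7% of the 12543 tested genes, and that of LHCSR3.2 was 0.51, above 99.4%. The median over all tested genes was 0.14. The limma fit draws the variance of each gene toward that of genes of similar level. The SEs and intervals given above for LHCSR3.1, LHCSR3.2 and their sum are therefore narrower than their own replicates alone would give. Among the 5394 tested genes with a mean from 1 to 5 FPKM, the shares below LHCSR3.1 and LHCSR3.2 were 99.8% and 99.5%. LHCSR1 (0.18), LHCB4 (0.14), LHCB5 (0.21) and LHCB7 (0.11) lay between the 34.1% and the 78.8% positions of all tested genes.

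**Figure D2:**
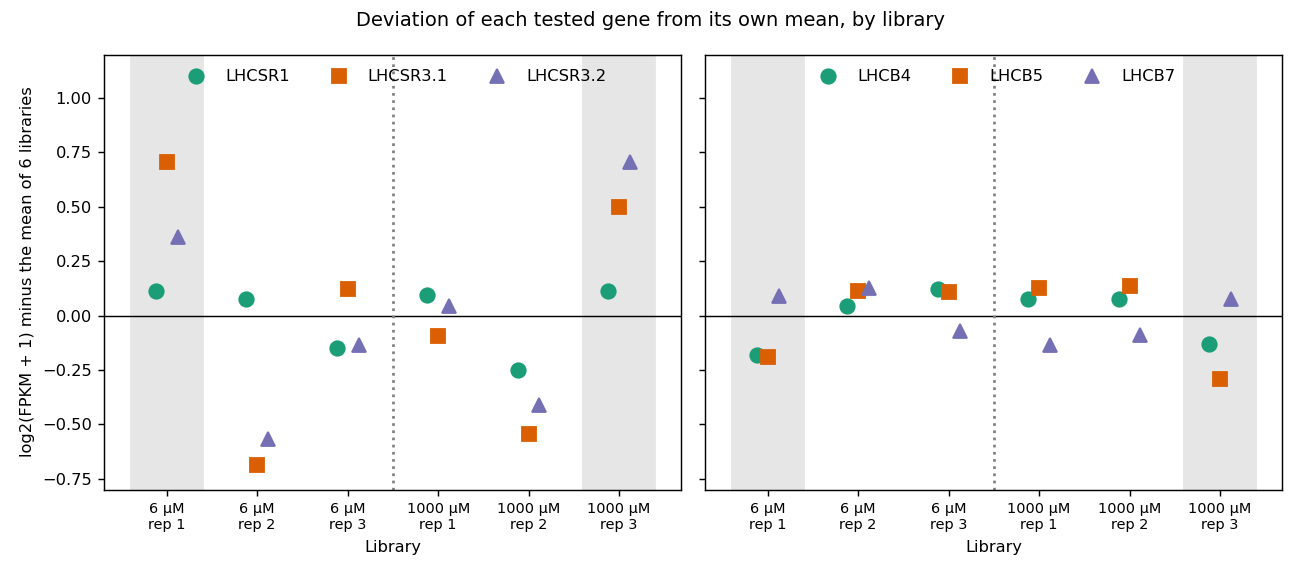
Deviation of log2(FPKM + 1) from each gene's mean over the 6 libraries (vertical axis) by library, for the LHCSR genes (left) and the LHCB genes (right); grey bands mark 6 µM replicate 1 and 1000 µM replicate 3, and the dotted line divides the manganese levels. LHCSR3.1 and LHCSR3.2 lie at 0.36 to 0.71 in the grey bands, where LHCB4 and LHCB5 lie at -0.29 to -0.13.

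The LHCSR3 copies were of similar level. The ratio of LHCSR3.2 to LHCSR3.1 was 0.812, 1.60 and 0.865 in 6 µM replicates 1, 2 and 3, and 1.38, 1.53 and 1.38 in 1000 µM replicates 1, 2 and 3. LHCSR3.2 was the higher copy in all 3 libraries at 1000 µM and in 1 of 3 at 6 µM, and that library held the highest ratio of all, so the groups overlapped. In both libraries where LHCSR3.1 was the higher, 6 µM replicates 1 and 3, the Poisson intervals of the copies overlapped. They overlapped in the other libraries too, except in 1000 µM replicate 3. There they ran from 1.97 to 2.74 FPKM for LHCSR3.1 and from 2.78 to 3.68 FPKM for LHCSR3.2. Overlap of intervals is not a test of equality, and a switch of the more abundant copy was not tested. LHCSR1 exceeded the summed LHCSR3 genes in every library. That ratio was 8.70, 36.2 and 12.8 at 6 µM and 15.4, 22.2 and 8.10 at 1000 µM, and it was lowest in the libraries that stood apart in each group. Reads fitting both LHCSR3 copies would, if left out in the counting, be missing from the sum, which was not tested.

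PSBS1 and PSBS2 transcripts were barely detected. PSBS1 measured 0.0115, 0.0212 and 0.0102 FPKM in 6 µM replicates 1, 2 and 3, corresponding to 1, 2 and 1 fragments. At 1000 µM it was listed at 0 in replicates 1 and 3 and measured 0.0322 FPKM, or 2 fragments, in replicate 2. PSBS2 measured 0.0355 FPKM (3 fragments) in 6 µM replicate 1 and 0.0211 FPKM (2 fragments) in 6 µM replicate 3, and it was listed at 0 in 6 µM replicate 2. At 1000 µM it measured 0.0114, 0.0166 and 0.0278 FPKM in replicates 1, 2 and 3, or 1, 1 and 2 fragments. In all, 6 fragments were assigned to PSBS1 and 9 to PSBS2 over the 6 libraries. Whether reads fitting both PSBS genes were counted is not known, so these numbers may be too low.

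A count of 0 allows up to 3 fragments. That limit was 0.0333 and 0.0404 FPKM for PSBS1 in 1000 µM replicates 1 and 3, and 0.0327 FPKM for PSBS2 in 6 µM replicate 2. Both groups lay at or near this limit, and no fold is given. Both genes fell below the mean of 1 FPKM required for testing. In a fit with no filter on low values the log2 difference was -0.0052 for PSBS1 and -0.00022 for PSBS2 (limma adjusted p = 0.999998 each), where the added 1 FPKM hides any fold at these levels. A difference between the manganese levels was not detectable at this depth.

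LHCB4 and LHCB5, the CP29 and CP26 antenna proteins, were among the most abundant transcripts of the culture, with LHCB5 at rank 59 and LHCB4 at rank 65 of all gene models by mean FPKM. LHCB4 measured 2340.0, 2740.2 and 2892 FPKM in 6 µM replicates 1, 2 and 3, and 2798, 2798 and 2423 FPKM in 1000 µM replicates 1, 2 and 3. LHCB5 measured 2472, 3052 and 3036 FPKM at 6 µM and 3074, 3099 and 2302 FPKM at 1000 µM, in the same order. Both were lowest in 6 µM replicate 1 and 1000 µM replicate 3, where the LHCSR3 genes were highest, and the other 4 libraries lay close together whatever their manganese level.

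The means of LHCB4 were 2657 ± 285 FPKM with 6 µM against 2673 ± 216 FPKM with 1000 µM manganese (SD, n = 3 per group). Its log2 difference was 0.01 ± 0.13 (SE), with a 95% interval from -0.28 to 0.30 (limma adjusted p = 0.99997), or 0.823-fold to 1.23-fold in FPKM. It turned to -0.08 both when each library was scaled to the same FPKM total and after quantile normalization. The means of LHCB5 were 2854 ± 330.1 and 2825 ± 453 FPKM (SD, n = 3 each). Its log2 difference was -0.02 ± 0.16 (SE), with a 95% interval from -0.38 to 0.34 (limma adjusted p = 0.99997), or 0.769-fold to 1.26-fold in FPKM.

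The ratio of LHCB5 to LHCB4 within a library was close to 1. It was 1.06, 1.11 and 1.05 in 6 µM replicates 1, 2 and 3 and 1.10, 1.11 and 0.950 in 1000 µM replicates 1, 2 and 3. LHCB5 was the higher of the pair in every library except 1000 µM replicate 3. Over the 6 libraries the ranges of LHCB4, 2340.0 to 2892 FPKM, and LHCB5, 2302 to 3099 FPKM, overlapped, and the within-library order was not tested.

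**Figure D3:**
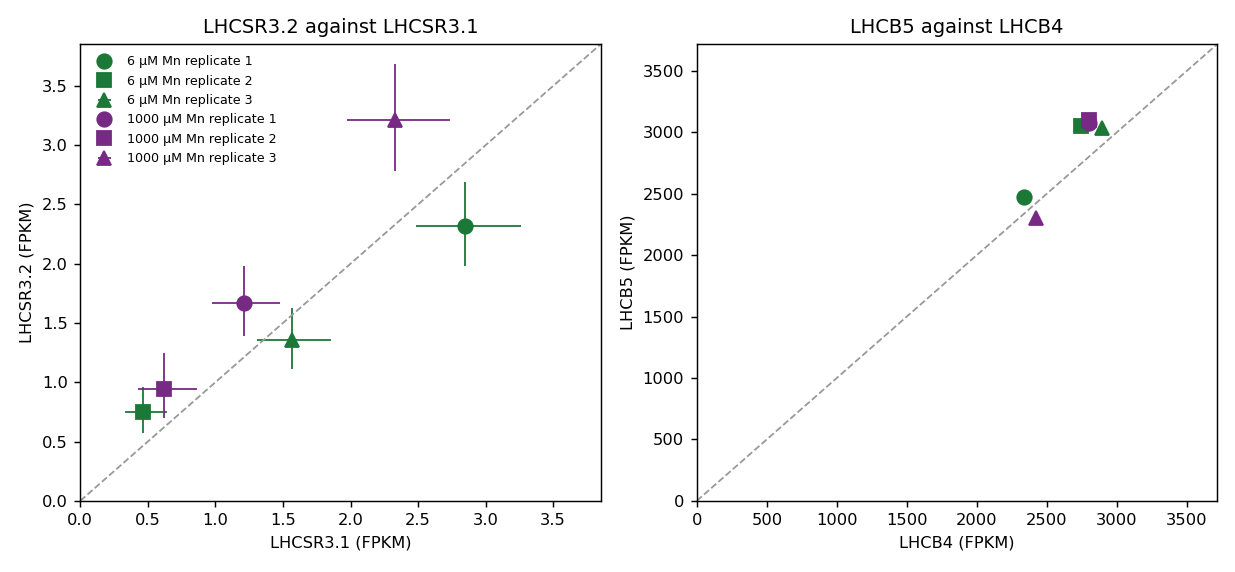
FPKM of LHCSR3.2 against LHCSR3.1 (left, with exact Poisson 95% intervals for counting error) and of LHCB5 against LHCB4 (right), 1 symbol per library, green for 6 µM and purple for 1000 µM manganese; the dashed line marks equal levels. The LHCSR3 genes spread from 0.467 to 3.21 FPKM with both groups mixed along the line, while 4 LHCB libraries from both groups cluster and 6 µM replicate 1 and 1000 µM replicate 3 lie lower.

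LHCB7, a further relative of the minor antenna proteins, was expressed at a far lower level than LHCB4 and LHCB5. It measured 8.61, 8.86 and 7.57 FPKM in 6 µM replicates 1, 2 and 3, and 7.21, 7.47 and 8.51 FPKM in 1000 µM replicates 1, 2 and 3. A pair of libraries at 1000 µM lay below every library at 6 µM, and 1000 µM replicate 3, one of those that stood apart, lay among the 6 µM values. The means were 8.35 ± 0.683 FPKM with 6 µM against 7.73 ± 0.688 FPKM with 1000 µM manganese (SD, n = 3 per group). The log2 difference was -0.10 ± 0.10 (SE), with a 95% interval from -0.33 to 0.14 (limma adjusted p = 0.99997), or 0.768-fold to 1.11-fold in FPKM. It was the only member whose difference kept its sign in all 18 alternatives, from -0.18 to -0.06, and it passed the adjusted threshold in none of them. Between 422 and 761 fragments stood behind each value.

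In order of FPKM as deposited, LHCB5 and LHCB4 were followed by LHCSR1, LHCB7, the LHCSR3 genes and the PSBS genes. Within each of the pairs LHCB5 and LHCB4, LHCSR3.2 and LHCSR3.1, and PSBS2 and PSBS1 the ranges over the 6 libraries overlapped. Between these levels they did not: LHCB4 exceeded LHCSR1 by 52.1-fold to 80.7-fold within a library, and the lowest LHCB7 value, 7.21 FPKM, lay above the highest LHCSR3 value, 3.21 FPKM. In every library 4 members were above 1 FPKM, the LHCSR3 genes were under it in 2 of 6 libraries each, and both PSBS genes were under it in all 6.

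**Figure D4:**
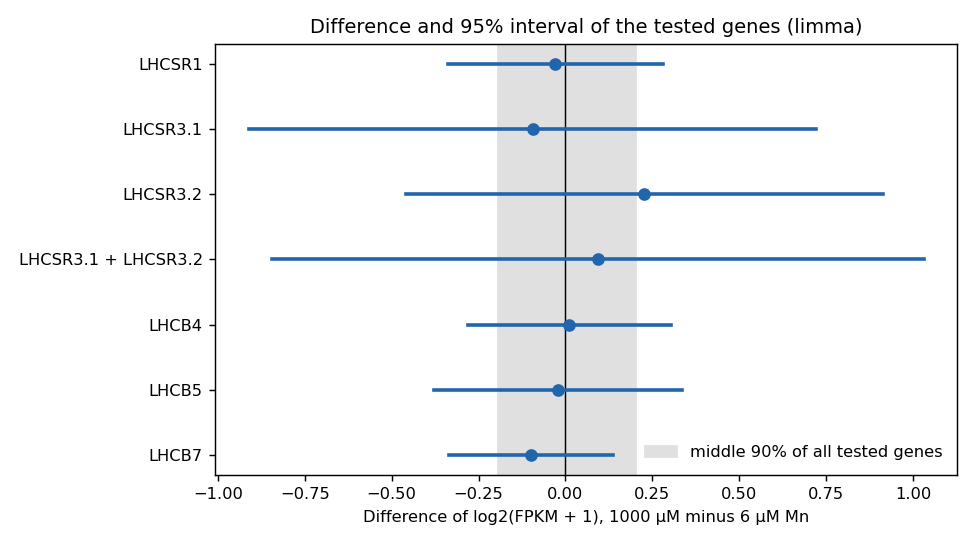
Difference of log2(FPKM + 1) between 1000 and 6 µM manganese (horizontal axis) with its 95% interval from limma for the 6 tested genes and the summed LHCSR3 genes; the grey band spans the middle 90% of the differences of all 12543 tested genes, from -0.19 to 0.20. All intervals include 0, and those of the LHCSR3 genes are the widest.

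Counted together, 0 of the 6 tested members passed the adjusted threshold, as did 0% of all 12543 tested genes. At a limma unadjusted p under 0.05 there were 0 members against 2.82% of all tested genes (1.08% higher and 1.75% lower at 1000 µM). The smallest unadjusted p among the members was 0.368 in limma, for LHCB7. The groups did not overlap for 0 members, against 8.04% of all tested genes. The median log2 difference of the tested members was -0.03, beside 0.01 for all tested genes. A change of FPKM by 1.5-fold or more, up or down, lay outside the 95% interval of 4 members, LHCSR1, LHCB4, LHCB5 and LHCB7, as it did for 81.4% of all tested genes. For LHCSR3.1 and LHCSR3.2 even a 2-fold change lay within the interval in at least 1 direction, whereas for 97.8% of all tested genes it lay outside in both.

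Without 6 µM replicate 1 and 1000 µM replicate 3 the log2 difference was -0.04 for LHCSR1, 0.17 for LHCSR3.2, -0.01 for LHCB4, 0.02 for LHCB5 and -0.14 for LHCB7, and none passed the adjusted threshold. LHCSR3.1 then averaged under 1 FPKM and was not tested, and the summed LHCSR3 genes differed by 0.10 with an SE of 0.27, against an SE of 0.41 with all libraries. Among all tested genes, 24.5% had their highest values and 21.4% their lowest in exactly these libraries. Of the tested members LHCSR1, LHCSR3.1 and LHCSR3.2 had the highest and LHCB4 and LHCB5 the lowest, although for LHCSR1 the margin over the next library was under 1 FPKM. The part of these libraries' shared deviation in the spread of the LHCSR3 genes was not tested.

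Other antenna and photoprotection genes were read from lists of locus identifiers drawn up from general knowledge of the v5.5 gene models. No source used here pairs those identifiers with names, so they are given by identifier only. In the list for the LHCBM proteins, the major trimeric antenna, all 9 identifiers were tested, 0 passed the adjusted threshold, 0 had a limma unadjusted p under 0.05, and the median log2 difference was 0.07. The differences ran from -0.12 for Cre06.g284200 (1.62 ± 0.458 FPKM at 6 µM, 1.403 ± 0.374 FPKM at 1000 µM) to 0.45 for Cre06.g284250 (58.0 ± 29.1 and 74.4 ± 9.78 FPKM; SD, n = 3 each). In the list for the LHCA proteins, the antenna of photosystem I, the same counts were 9, 0 and 0, with a median of 0.03 and a range from -0.04 for Cre11.g467573 to 0.21 for Cre10.g452050. Of these 9 genes, 8 had their lowest values in 6 µM replicate 1 and 1000 µM replicate 3, as LHCB4 and LHCB5 did, and of the 9 in the LHCBM list 5 did.

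In the list for photoprotection outside the antenna (xanthophyll cycle, state-transition kinases, cyclic electron flow, light and UV receptors, flavodiiron and early light-induced proteins) all 12 identifiers were tested, with 0 past the adjusted threshold and 0 at a limma unadjusted p under 0.05. The median log2 difference was 0.08. The differences ran from -0.16 for Cre04.g221550 (15.1 ± 1.39 FPKM at 6 µM, 13.4 ± 1.26 FPKM at 1000 µM) to 0.29 for Cre09.g394325 (23.2 ± 3.36 and 28.7 ± 5.08 FPKM; SD, n = 3 each). The groups did not overlap for 2 of the 12, beside 8.04% of all tested genes. They were Cre05.g230600 and Cre12.g483650, which are named after their values were seen. Cre05.g230600 ran from 14.8 to 15.3 FPKM at 6 µM and from 15.6 to 16.8 FPKM at 1000 µM, which is 0.08 ± 0.09 (SE) on the log2 scale. For Cre12.g483650 the corresponding value was 0.07 ± 0.09 (SE).

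LHCSR3.1 varied most over the 6 libraries among the tested members. The genes outside the members whose centred log2(FPKM + 1) profile lay nearest to it over the 6 libraries were Cre17.g698400, Cre06.g258600 and Cre17.g716750, with root mean square differences of 0.12, 0.14 and 0.15, beside a median of 0.51 over all tested genes. Cre17.g698400 measured 28.8, 13.4 and 21.0 FPKM in 6 µM replicates 1, 2 and 3 and 20.5, 14.6 and 29.3 FPKM in 1000 µM replicates 1, 2 and 3. Like the LHCSR3 genes, Cre17.g698400 and Cre06.g258600 were highest in the libraries that stood apart and lowest in the replicates numbered 2. Picking genes by their likeness to LHCSR3.1 favours such a pattern. Cre17.g716750 was highest in 6 µM replicates 1 and 3, at 5.36 and 4.28 FPKM, and measured 3.85 FPKM in 1000 µM replicate 3. The neighbouring gene LHCSR3.2 differed from LHCSR3.1 by 0.22, with 12 genes outside the members nearer, while LHCSR1 differed by 0.46. These are likenesses over 6 libraries that came from 1 starter culture and differed in depth.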

How the data were processed

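Poly-A RNA libraries of 6 cultures were compared, 3 with 6 µM and 3 with 1000 µM manganese; groups and replicate numbers came from the sample titles, and 0 per-sample columns were left unused. The values are gene-level FPKM as deposited by the authors in 1 table. Per the submitters' processing notes, the tools included CASAVA, STAR and Cuffdiff 2.2.1. The genome build, tool settings, filters and strandedness were not given in the sources used here, so positions are not printed. Reads of close relatives or overlapping genes may be divided, merged or left out.

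Values were transformed to log2(FPKM + 1), which understates differences of low genes. The 12543 genes averaging 1 FPKM or more entered a two-sided limma 3.58.1 test in R 4.3.3 (trended eBayes), and p-values were adjusted over all of them by the Benjamini-Hochberg method. For summed pairs the sum replaced both rows. FPKM intervals were back-calculated from the log2(FPKM + 1) interval at the 6 µM level. Relative depth was the most frequent ratio between libraries among genes with a mean under 0.15 FPKM; for each member, multiples up to 3000 in its lowest library were tried, within 0.02 of whole numbers. Intervals and limits from fragments cover counting error only. No count model was run. Both procedures were tested on simulated data, the recovery of fragments at counts like those of LHCSR3.1, LHCSR3.2 and LHCB7. Recovery was not simulated at the higher counts of LHCSR1 or at the 0 to 3 fragments of the PSBS genes. Figures were drawn with matplotlib 3.10.9.

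All 8 members are named, with the extremes of each comparison list and the 3 genes most like the most variable tested member. Members, lists, tests and alternatives were chosen with earlier results of these data known. The labels give no batch.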

Additional observations from a re-analysis of the deposited data

How the results depend on the processing

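In 18 alternatives (added values of 0.1 and 5 FPKM, a filter at 5 FPKM or none, 3 scalings, a replicate block, untrended or robust eBayes, quality weights, 6 omissions of 1 library and 1 of both libraries that stood apart) 0 members passed the limma adjusted threshold and 0 had an unadjusted p under 0.05. Among all tested genes 0 to 26 passed, and 2.01% to 10.1% had such a p, with both upper values from the fit with quality weights. The smallest adjusted p of any member was 0.592, for LHCB7 with quality weights. Differences this close to 0 changed sign readily, and the cause was not tested. The quality weights were 6.58 for 1000 µM replicate 1, 0.27 for 1000 µM replicate 3 and 0.56 to 1.49 for the other libraries. LHCSR1 became 0.090 with these weights. LHCB4 became -0.077 with the same FPKM total per library, -0.076 after quantile normalization and -0.0089 without both libraries that stood apart. LHCB5 became 0.061 with quality weights and 0.020 without both libraries. Without both libraries PSBS1 became 0.00042, PSBS2 0.0050 and their sum 0.0052, and PSBS2 became 0.0059 with a pseudocount of 0.1 and 0.00079 after quantile normalization.

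With 1 library left out, the log2 difference ran from -0.11 to 0.089 for LHCSR1, from -0.46 to 0.24 for LHCSR3.1, from -0.069 to 0.49 for LHCSR3.2 and from -0.29 to 0.45 for their sum. It ran from -0.078 to 0.080 for LHCB4, from -0.12 to 0.12 for LHCB5, from -0.16 to -0.06 for LHCB7, from -0.020 to 0.0024 for PSBS1, from -0.014 to 0.012 for PSBS2 and from -0.019 to 0.0072 for the PSBS sum. The number of tested members whose groups did not overlap ran from 0 to 2 in these omissions. They were LHCB7 without 6 µM replicate 3, and LHCB5 and LHCB7 without 1000 µM replicate 3. In these omissions the groups did not overlap for 13.8% and 18.5% of all tested genes. PSBS1, which was under the filter, did not overlap without 1000 µM replicate 2, beside 15.7% of all tested genes. Its values there rest on 0 to 2 fragments. Without both libraries that stood apart the groups did not overlap for 2 tested members, again LHCB5 and LHCB7, beside 34.7% of all tested genes.

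Deviations of same-numbered libraries correlated across genes at -0.40, 0.51 and -0.50 for replicates 1, 2 and 3. The libraries that stood apart carry different numbers, so these values cannot decide whether replicate numbers pair the cultures. With a replicate block the log2 differences were the same, for example -0.09 ± 0.22 (SE) for LHCSR3.1, and 0 members passed. The SE fell from 0.36 to 0.22 for LHCSR3.1 and from 0.30 to 0.20 for LHCSR3.2. It rose from 0.13 to 0.15 for LHCSR1 and LHCB4, from 0.16 to 0.17 for LHCB5 and from 0.10 to 0.13 for LHCB7. LHCSR3.1 and LHCSR3.2 had no value at a minimum mean of 5 FPKM. Depth and the unknown counting of shared reads limit statements on the PSBS genes. The spread between cultures and the same unknown counting limit those on the LHCSR3 genes.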
